A study of Mus musculus with 12 samples.

Results

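Lactate dehydrogenase and the glycolytic enzymes were examined through 10 genes: Hk1, Hk2, Aldoa, Tpi1, Pgk1, Eno1, Pkm, Ldha, Ldhb and Slc16a1. Every probe set of the array that the platform annotation assigns to 1 of these genes alone was taken, which gave 13 probe sets for 9 genes out of 12422 probe sets and 8251 genes tested. Eno1 had no such probe set and was not analysed here. The arrays held 8 samples of leukemic thymus cells from TEL-JAK2 mice with terminal disease and 4 samples of thymocytes from wild-type mice aged 2 months, all mice on the C57BL/6 background. TEL-JAK2 is a fusion of the transcription factor TEL (Etv6) with the tyrosine kinase Jak2, and no label names the promoter that drives it. The labels give no age for the leukemic mice, so age and leukemia cannot be told apart. Every thymus was dissociated mechanically on ice and its total RNA was labelled for Affymetrix arrays that read the 3′ end of transcripts. The arrays are numbered in the order of their records within each group. Nothing in the labels states that they came from separate animals, so each p-value measures the spread between these samples.

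Glycolysis splits glucose into pyruvate and yields ATP without oxygen. Hexokinases trap glucose in the cell, aldolase and triosephosphate isomerase handle the split into triose phosphates, and phosphoglycerate kinase and pyruvate kinase make the ATP. Lactate dehydrogenase is a tetramer of A and B subunits that interconverts pyruvate and lactate, and the monocarboxylate transporter MCT1, made from Slc16a1, moves lactate across the plasma membrane together with a proton. Tetramers of the A subunit, encoded by Ldha, prevail in muscle, and tetramers of the B subunit, encoded by Ldhb, prevail in heart.

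The arrays were closely alike in brightness, with median intensities from 66.48 to 70.18, and no pair held the same values. The correlation between arrays was 0.961 to 0.993 among leukemias, 0.990 to 0.997 among thymocyte samples and 0.955 to 0.980 between a leukemia and a thymocyte sample. A probe set is called near the control level where its mean in a group lay below the 95th percentile of 19 probe sets for non-mouse transcripts, which averaged 5.37 on the log2 scale in leukemia arrays and 5.34 in thymocyte arrays. Of the T-lineage markers, 12 were measured and all 12 lay above that level. Titles carry a number of 4 digits for 4 leukemias and 3 thymocyte samples, and another form of name for leukemias 1, 6, 7 and 8 and thymocyte array 4. Leukemia 6 and thymocyte array 4 stood apart in the control probe set for the 3′ end of beta-actin, at 12.60 and 12.75 against at least 13.23 on the other arrays.

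The leukemias had less RNA for the B subunit of lactate dehydrogenase and more RNA for the A subunit, hexokinase 1, aldolase A and pyruvate kinase. Ldhb was 4.61-fold lower in the leukemias, the largest change of the 9 genes, whereas the 4 genes that rose did so by 1.25-fold to 1.78-fold. The calls for Ldha and Pkm (96066_s_at) were less firm, and were lost in 15 and 8 of 26 alternative runs. Those for Hk1 and each Aldoa probe set were lost in 2. Slc16a1 fell by 0.99 on the log2 scale, with means near the control level in both groups. Hk2, Pgk1 and Tpi1 did not pass the test. In samples of mixed cells, fewer cells of a type and less RNA per cell cannot be told apart.

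The counts follow from limma's moderated test on log2 intensity, with calls made at an adjusted p under 0.05, taken over every probe set or every gene tested. Among the 9 genes 4 were higher, 2 were lower and 3 did not pass. Of all 8251 genes 17.3% changed, with 5.41% higher and 11.9% lower. Among the 13 probe sets 5 were higher, 2 were lower and 6 did not pass, against 14.5% changed, 4.65% higher and 9.88% lower over all probe sets. In 3 of the 9 genes every leukemia lay above every thymocyte array, and in 2 every leukemia lay below, against 4.21% and 8.11% of all genes and 12.3% for both directions together. Of the 13 probe sets 4 lay higher and 2 lower in every leukemia, against 3.84% and 6.84% of all probe sets. The median log2 change was 0.31 over the 9 genes and 0.00 over all genes. Of the 13 probe sets 9 lay above the control level in at least 1 group, and the 4 near it in both were both Hk2 probe sets, 1 of Ldhb and that of Slc16a1.

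**Figure D1:**
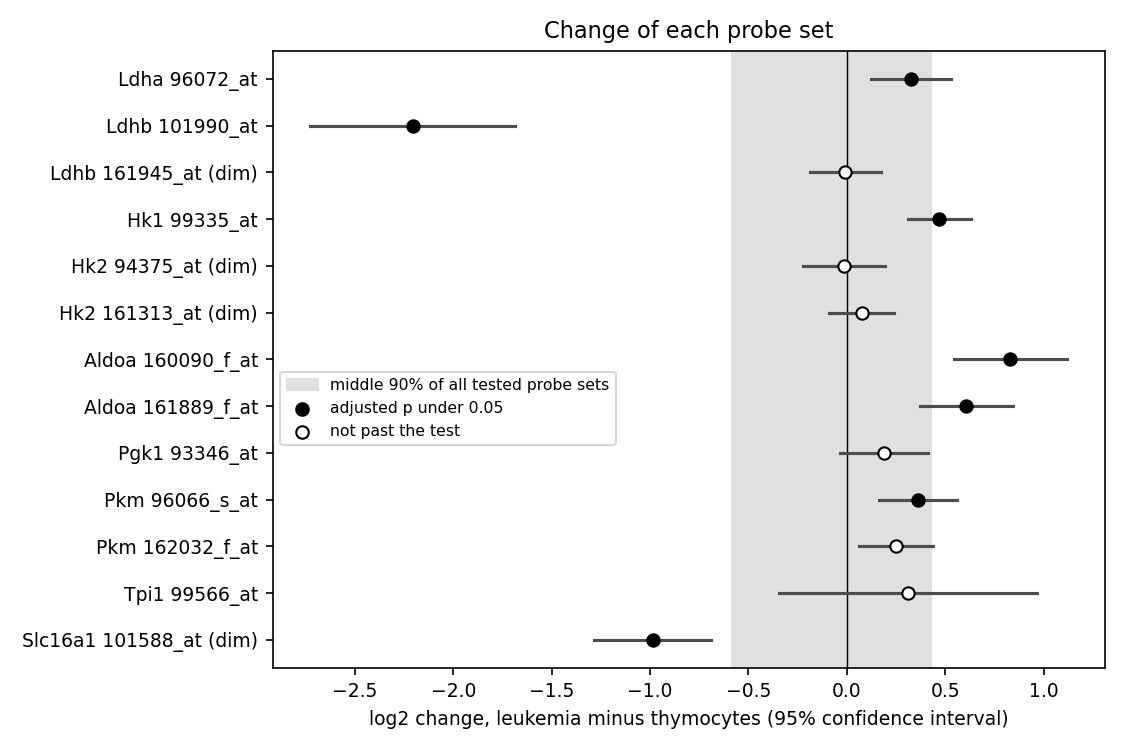
Log2 change of each probe set in leukemias relative to thymocytes, with its 95% confidence interval, for 13 probe sets of 9 genes. Filled circles passed the limma test at an adjusted p under 0.05, open circles did not, "dim" marks means near the control level in both groups, and the grey band holds the middle 90% of all tested probe sets (-0.58 to 0.43); Ldhb 101990_at at -2.21 lies farthest from 0.

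Ldhb (probe set 101990_at) carried the widest gap between the groups. Its log2 intensity was 5.78, 6.24, 5.75, 7.19, 5.70, 6.14, 6.40 and 6.80 in leukemias 1 to 8, against 8.51, 8.49, 8.43 and 8.40 in thymocyte arrays 1 to 4. Every leukemia lay below every thymocyte array, with leukemias 4 and 8 the least reduced and leukemias 1, 3 and 5 the most. The log2 change was -2.21 (SE 0.24, limma adjusted p = 4.84e-05). Only 11 of the 12422 probe sets, and 7 of the 8251 genes, fell by more.

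Ldhb also varied far more among leukemias than among thymocyte samples. It averaged 6.25 ± 0.53 in leukemias (SD, n = 8) and 8.46 ± 0.05 in thymocytes (SD, n = 4), an SD 10.5 times as large in the leukemias. Among probe sets above the control level in leukemia, 5.47% had a larger SD over the 8 leukemias. A second Ldhb probe set, 161945_at, averaged 3.49 ± 0.15 in leukemias and 3.50 ± 0.07 in thymocytes, near the control level in both, and did not pass the test (log2 change -0.01, limma adjusted p = 0.970). With the 2 probe sets averaged, the gene still passed, at a log2 change of -1.11.

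Ldha (96072_at) moved the other way and by less. Its log2 intensity was 11.30, 11.15, 11.47, 11.18, 10.96, 11.17, 11.38 and 11.09 in leukemias 1 to 8, against 10.99, 10.98, 10.71 and 10.87 in thymocyte arrays 1 to 4. The groups overlapped through leukemia 5 alone, and the other 7 leukemias lay above all thymocyte arrays. The means were 11.21 ± 0.16 in leukemias (SD, n = 8) and 10.89 ± 0.13 in thymocytes (SD, n = 4), a log2 change of 0.32 (SE 0.09, 1.25-fold, limma adjusted p = 0.0338). The call rests on few arrays: the adjusted p was 0.0505 to 0.136 without leukemia 1, 3 or 7 or without any 1 of the 4 thymocyte arrays. The limma adjusted p was 0.109 after quantile normalization and 0.117 with the mean of macrophage markers as a covariate. The log2 change stayed between 0.22 and 0.37 in every alternative run.

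Taking Ldhb minus Ldha on each array sets the change of one subunit against the change of the other, and says nothing of their relative levels. This log2 difference averaged -4.96 ± 0.58 in leukemias (SD, n = 8), from -5.72 in leukemia 3 to -3.99 in leukemia 4, and -2.43 ± 0.10 in thymocytes (SD, n = 4), from -2.49 to -2.28. It was lower by 2.53 in the leukemias, a ratio 5.78-fold lower, with an exact permutation p of 0.00404, two-sided, the smallest that 495 assignments of arrays can give, and 0.00808 adjusted over 2 such differences. Ldhb alone separates the groups, at 7.19 or less against 8.40 or more, and Ldha ran only from 10.71 to 11.47. This p therefore followed from Ldhb and adds no evidence beyond it. Across the 8 leukemias the genes showed no relation that passed a test: Pearson's r of Ldha with Ldhb was -0.16 (exact permutation p = 0.694, adjusted 0.716 over 3 relations) and Spearman's rho was 0 (exact p = 1). Without leukemias 4 and 8, the farthest from the Ldhb median, r was 0.13.

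**Figure D2:**
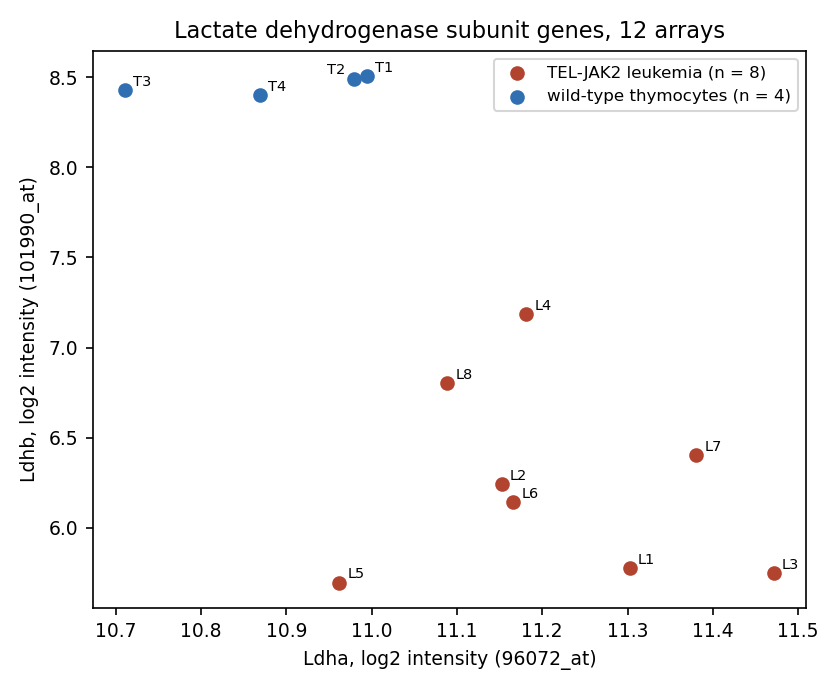
Log2 intensity of Ldhb (vertical axis) against Ldha (horizontal axis) on each of 8 leukemia arrays (L1 to L8) and 4 thymocyte arrays (T1 to T4). The leukemias spread over 5.70 to 7.19 for Ldhb, all below the thymocyte arrays at 8.40 to 8.51, and only leukemia 5 lies within the thymocyte range of Ldha.

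The genes whose brightest probe sets ran most like the 2 subunits over the 12 arrays were sought among 6036 genes above the control level. For Ldhb these were the receptor gene Ephb6 (r = 0.975 over 12 arrays and 0.801 over the 8 leukemias), the kinase gene Tnk2 (0.970 and 0.850) and the cofactor gene Ldb1 (0.961 and 0.761). For Ldha they were the cargo receptor gene Lman2 (0.923 and 0.882), Cdk2ap2 (0.920 and 0.812) and the proteasome assembly gene Pomp (0.910 and 0.946). The arrays share the step between the groups, which enters each r over 12 arrays, and these values are a description.

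The 250 bases before the gene start are shown for 4 genes that differ in how they moved: Ldhb, which fell most, Ldha, which rose, Slc16a1, which fell near the control level, and Pgk1, which did not pass the test. Capitals mark ACGTG and GCGTG on either strand, the letters at the core of the sites bound by hypoxia-inducible factors, and CACGTG, an E-box that Myc and upstream stimulatory factors can bind and that contains ACGTG. The sequences are from RefSeq, build GRCm38.p6, and the start is the most upstream one in that table.
Ldhb, chr6:142507958-142508207, minus strand: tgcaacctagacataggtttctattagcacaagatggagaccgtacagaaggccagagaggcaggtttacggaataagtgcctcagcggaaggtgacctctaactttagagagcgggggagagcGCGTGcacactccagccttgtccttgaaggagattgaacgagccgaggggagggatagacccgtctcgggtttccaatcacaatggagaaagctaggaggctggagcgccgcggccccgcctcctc
Ldha, chr7:46845554-46845803, plus strand: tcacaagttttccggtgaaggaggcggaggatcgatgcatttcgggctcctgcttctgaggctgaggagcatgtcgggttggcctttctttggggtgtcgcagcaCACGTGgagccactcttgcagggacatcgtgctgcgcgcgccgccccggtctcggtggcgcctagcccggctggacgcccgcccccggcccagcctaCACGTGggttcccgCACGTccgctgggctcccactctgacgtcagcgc
Slc16a1, chr3:104638414-104638663, plus strand: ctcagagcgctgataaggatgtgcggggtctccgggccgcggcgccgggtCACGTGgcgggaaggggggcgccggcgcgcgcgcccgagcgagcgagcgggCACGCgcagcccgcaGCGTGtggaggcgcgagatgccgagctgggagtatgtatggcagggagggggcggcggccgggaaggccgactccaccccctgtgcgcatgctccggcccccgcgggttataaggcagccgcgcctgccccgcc
Pgk1, chrX:106186850-106187099, plus strand: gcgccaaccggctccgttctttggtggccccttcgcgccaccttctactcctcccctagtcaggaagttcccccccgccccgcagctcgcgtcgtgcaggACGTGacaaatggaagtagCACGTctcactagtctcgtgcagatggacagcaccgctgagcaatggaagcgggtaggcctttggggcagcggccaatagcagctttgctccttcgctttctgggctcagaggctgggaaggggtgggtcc
The Ldha stretch holds 3 such places, 2 of them CACGTG at 145 and 48 bases before the start. That of Slc16a1 holds 3, with 1 CACGTG at 200 bases, that of Pgk1 holds 2 and that of Ldhb holds 1, a GCGTG at 126 bases. Hk2 and Eno1 held 2 and 1 such places, and Hk1, Aldoa, Pkm and Tpi1 held none in the same window. The table lists 3 starts for Aldoa and Eno1 and 2 for Ldha, Hk1 and Pkm. Windows before their other starts were not read. ACGTG or GCGTG occurred in 38.6% of all 27025 promoters of the table in a window of that length, and CACGTG in 6.04%. These matches are letters only, and no binding was measured.

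At the entry of the pathway, hexokinase 1 rose. Hk1 (99335_at) was at 11.56, 11.56, 11.44, 11.59, 11.71, 11.49, 11.58 and 11.72 in leukemias 1 to 8, against 11.06, 11.15, 10.95 and 11.27 in thymocyte arrays 1 to 4. All leukemias lay above all thymocyte arrays, with little spread (11.58 ± 0.10 in leukemias, SD, n = 8, against 11.11 ± 0.14 in thymocytes, SD, n = 4). The log2 change was 0.47 (SE 0.07, 1.38-fold, limma adjusted p = 0.000856).

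Hexokinase 2, the inducible form of muscle, fat and many tumours, was read by 2 probe sets near the control level in both groups. Hk2 (94375_at) lay at 4.87 to 5.37 in the 8 leukemias, against 5.14 to 5.27 in thymocyte arrays, with a log2 change of -0.01 (SE 0.10, 95% confidence interval -0.22 to 0.19, limma adjusted p = 0.958). The second probe set, 161313_at, changed by 0.08 (limma adjusted p = 0.592). On each array Hk2 minus Hk1 averaged -6.41 ± 0.19 in leukemias (SD, n = 8) and -5.92 ± 0.18 in thymocytes (SD, n = 4), lower by 0.48 in the leukemias (exact permutation p = 0.00808, two-sided, adjusted 0.00808 over 2 differences). Hk2 was near the control level in both groups, so its own part of this difference is not resolved. Hk1 alone separates the groups, at 11.44 or more against 11.27 or less. This p therefore adds no evidence beyond the rise of Hk1.

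Aldoa, which encodes the aldolase of muscle and red cells, had the largest rise of the 9 genes. Its brightest probe set (160090_f_at) was at 10.60, 10.14, 10.65, 10.13, 10.34, 10.50, 10.82 and 10.10 in leukemias 1 to 8, against 9.69, 9.48, 9.48 and 9.67 in thymocyte arrays 1 to 4. The lowest leukemia lay above the highest thymocyte array. The log2 change was 0.83 (SE 0.13, 1.78-fold, limma adjusted p = 0.000907), and 227 of the 12422 probe sets rose by more. The second probe set, 161889_f_at, rose by 0.61 (SE 0.11, limma adjusted p = 0.00197), again with no overlap. The names of both carry a suffix for probes that may bind related transcripts.

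Tpi1, the triosephosphate isomerase gene, differed among leukemias more than between the groups. Its probe set (99566_at) was at 9.45, 8.05, 9.17, 7.66, 8.87, 8.72, 9.23 and 7.98 in leukemias 1 to 8, against 8.34, 8.32, 8.07 and 8.59 in thymocyte arrays 1 to 4. Leukemias 1, 3, 5, 6 and 7 lay above all thymocyte arrays, and leukemias 2, 4 and 8 below all of them. The means were 8.64 ± 0.66 in leukemias (SD, n = 8) and 8.33 ± 0.22 in thymocytes (SD, n = 4), a log2 change of 0.31 (SE 0.30, 95% confidence interval -0.35 to 0.96, limma adjusted p = 0.584). Among probe sets above the control level in leukemia, 3.21% had a larger SD over the 8 leukemias. With the mean of macrophage markers as a covariate the change was -0.04.

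Pgk1, whose enzyme makes the first ATP of the pathway, showed a smaller difference. Its probe set (93346_at) lay at 9.40 to 9.93 in the leukemias, with a median of 9.68, against 9.51, 9.48, 9.31 and 9.67 in thymocyte arrays 1 to 4. The groups overlapped, with 4 of 8 leukemias above all thymocyte arrays and none below. The log2 change was 0.19 (SE 0.10, 95% confidence interval -0.04 to 0.41, limma adjusted p = 0.288).

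Pkm encodes the M1 and M2 forms of pyruvate kinase through alternative splicing, and the annotation does not say that either probe set tells them apart. The brighter one (96066_s_at) was at 11.35, 11.28, 11.40, 11.01, 11.23, 11.62, 11.41 and 11.27 in leukemias 1 to 8, against 10.99, 10.98, 10.87 and 10.995 in thymocyte arrays 1 to 4. All leukemias lay above all thymocyte arrays, with leukemia 4 only just above. The log2 change was 0.36 (SE 0.09, 1.29-fold, limma adjusted p = 0.0170). It no longer passed without thymocyte array 3 (adjusted p = 0.0659), after quantile normalization (0.0892) or without leukemias 3, 5 and 7 (0.0731). Nor did it pass with the mean of macrophage markers as a covariate (limma adjusted p = 0.0609). The second probe set, 162032_f_at, changed by 0.25 (SE 0.09, limma adjusted p = 0.0790), and passed without leukemia 4 (0.00958). Both names carry a suffix for possible binding to related transcripts.

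Slc16a1, the lactate exporter and importer MCT1, was low on all arrays. Its probe set (101588_at) was at 4.10, 3.80, 3.90, 3.66, 3.79, 4.40, 4.16 and 4.33 in leukemias 1 to 8, against 4.89, 5.02, 4.86 and 5.24 in thymocyte arrays 1 to 4. All leukemias lay below all thymocyte arrays, and both means lay below the control level, so no fold is given. The log2 change was -0.99 (SE 0.14, limma adjusted p = 0.000349).

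**Figure D3:**
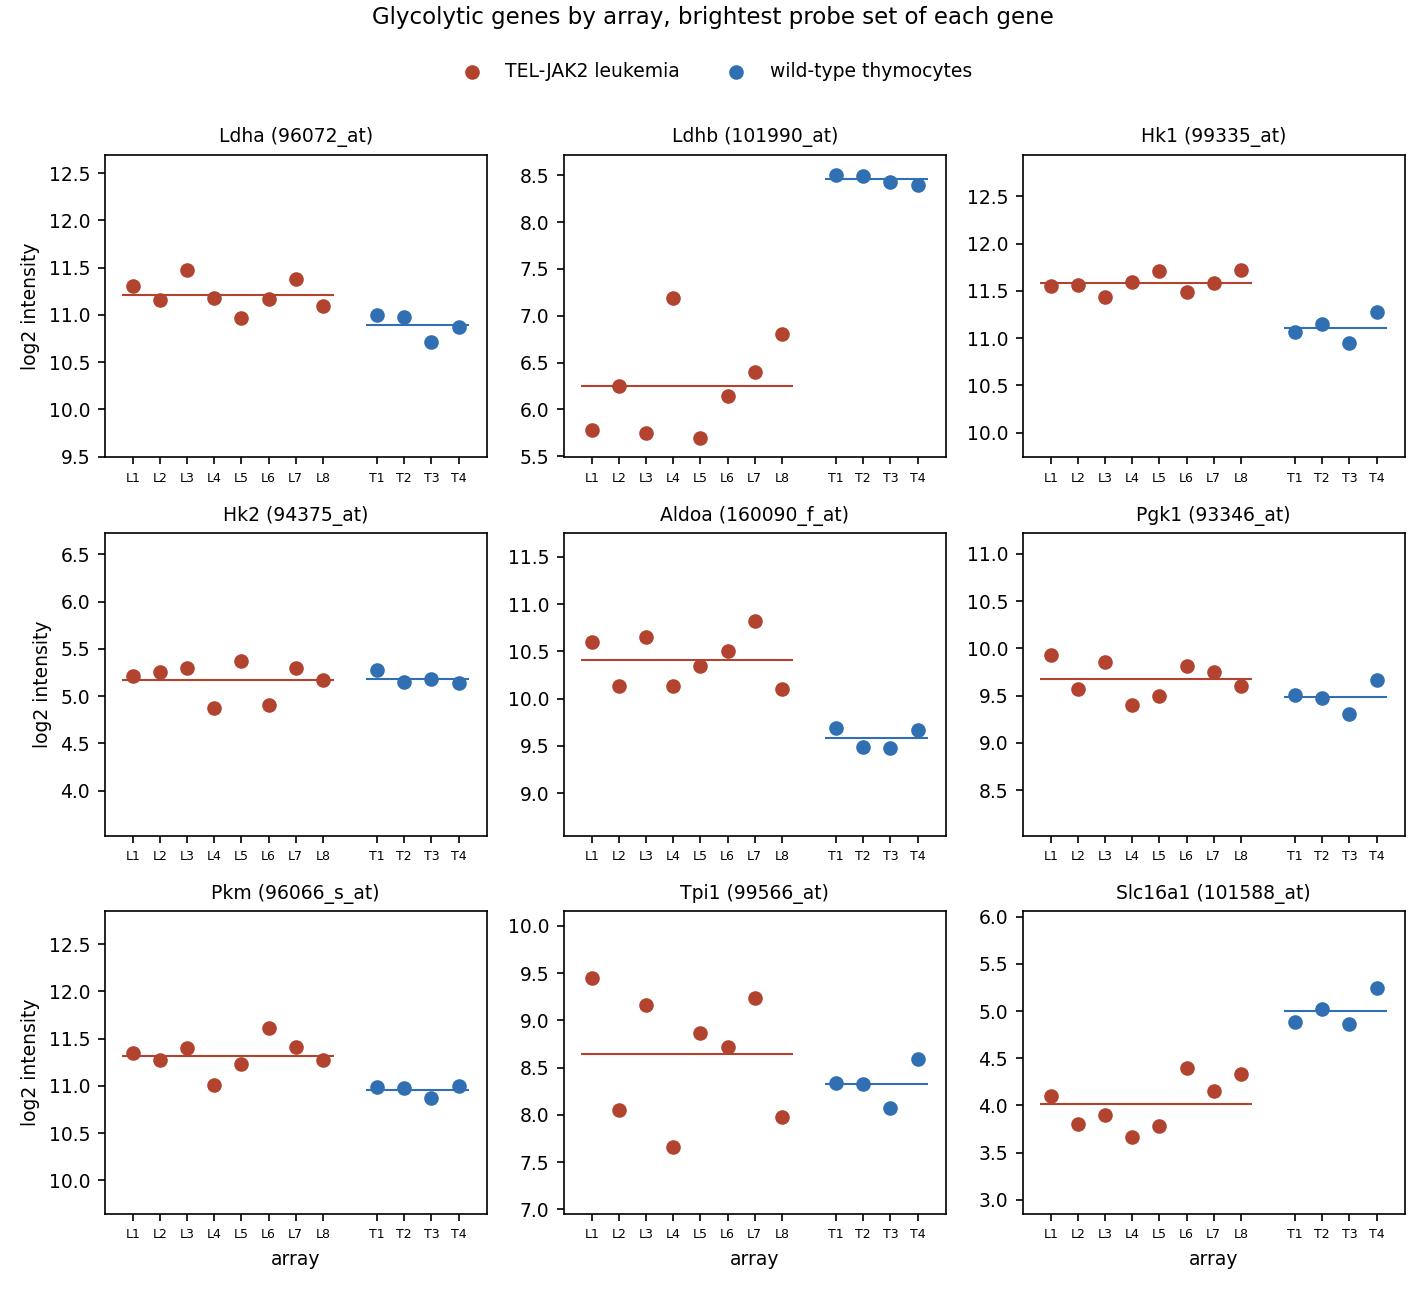
Log2 intensity of the brightest probe set of each of 9 genes on 8 leukemia arrays (L1 to L8, left) and 4 thymocyte arrays (T1 to T4, right), with group means as lines; each panel has its own axis, of equal or similar span. Ldhb and Slc16a1 lie lower in all leukemias, Hk1, Aldoa and Pkm lie higher in all leukemias, and Tpi1 spreads from 7.66 to 9.45 among leukemias.

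Within the arrays whose titles have a 4-digit number, the log2 changes were -2.25 for Ldhb, 0.30 for Ldha, 0.52 for Hk1, 0.76 for Aldoa, 0.28 for Pkm and -1.14 for Slc16a1. Within the remaining arrays, which hold 1 thymocyte sample, they were -2.12 for Ldhb, 0.37 for Ldha, 0.31 for Hk1, 0.84 for Aldoa, 0.42 for Pkm and -0.998 for Slc16a1. All 6 kept their direction in both. In the arrays with a 4-digit number Ldha (limma adjusted p = 0.166) and Pkm (limma adjusted p = 0.0899) did not pass. There Ldhb, Hk1, Aldoa and Slc16a1 passed. With the form of the title as a block all 6 passed, at -2.21 for Ldhb, 0.32 for Ldha, 0.45 for Hk1, 0.79 for Aldoa, 0.32 for Pkm and -1.09 for Slc16a1.

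The leukemias did not rank alike over the 6 enzyme genes Ldha, Hk1, Aldoa, Pgk1, Pkm and Tpi1. Leukemia 3 was among the highest 3 leukemias in 5 of the 6 genes, and leukemias 1 and 7 in 4 each. Leukemia 4 was the lowest in 3 of them, Pgk1, Pkm and Tpi1, and it had the highest Ldhb.

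Leukemias 1, 3, 5 and 7, the highest in Tpi1, were also the highest in 2 other glycolytic genes, Pfkp and Pgam1, which were named after their values were seen. Pfkp, the platelet-type phosphofructokinase gene, was at 8.01, 8.13, 7.83 and 8.24 in leukemias 1, 3, 5 and 7 and at 6.97 to 7.45 in leukemias 2, 4, 6 and 8, against 7.25, 7.10, 7.10 and 7.01 in thymocyte arrays 1 to 4. Pgam1, a phosphoglycerate mutase gene, was at 8.74, 8.26, 8.62, 8.01, 8.49, 8.33, 8.88 and 8.40 in leukemias 1 to 8, against 8.33, 8.36, 8.08 and 8.44 in thymocyte arrays 1 to 4. Neither gene passed the test between the groups. Leukemias 1, 3, 5 and 7 also had the highest Gzmb, the granzyme B gene of cytotoxic cells, at 11.09, 11.42, 11.02 and 12.22. Gzmb was at 5.88 to 7.96 in leukemias 2, 4, 6 and 8 and at 5.74 to 6.13 in thymocytes. Of the 7 NK and cytotoxic markers measured, 5 were near the control level in both groups. Besides Gzmb, only Prf1 was above it. Prf1 was at 7.04, 7.31, 7.22 and 8.83 in leukemias 1, 3, 5 and 7 and at 5.95 to 6.20 in leukemias 2, 4, 6 and 8. It was at 5.97 to 6.13 in thymocytes. The mean of all 7 markers was 4.71 to 6.22 in leukemias and 4.83 to 4.97 in thymocytes. Genes of other cells were also highest in leukemias 1, 3, 5 and 7. Hba-a1, a haemoglobin gene, was there at 11.93, 12.49, 12.05 and 12.14. It was at 9.67 to 11.58 in the other leukemias and 11.54 to 12.66 in thymocytes. Cd79a, a B-cell gene, was at 8.20 to 9.10 there and 7.32 to 7.86 in the other leukemias. Ighm and the mean of 8 B-lineage markers were instead highest in leukemia 2. The mean of 15 macrophage and myeloid markers was 7.21 to 7.72 in leukemias 3, 5 and 7, 6.08 to 6.58 in the other 5 leukemias and 6.13 to 6.41 in thymocytes. With this macrophage and myeloid mean as a covariate, 5 of the 13 probe sets were called, 3 higher and 2 lower. Ldha and Pkm did not pass there. Beyond that fit, the part of other cells in the enzyme values was not tested. Without leukemias 3, 5 and 7 the log2 changes were -2.02 for Ldhb, 0.29 for Ldha, 0.47 for Hk1, 0.71 for Aldoa and 0.04 for Tpi1, and without leukemias 1 and 7, the highest in the collagen genes Col1a1 and Col3a1 though not in Col1a2, they were -2.15, 0.28, 0.47, 0.73 and 0.08.

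**Figure D4:**
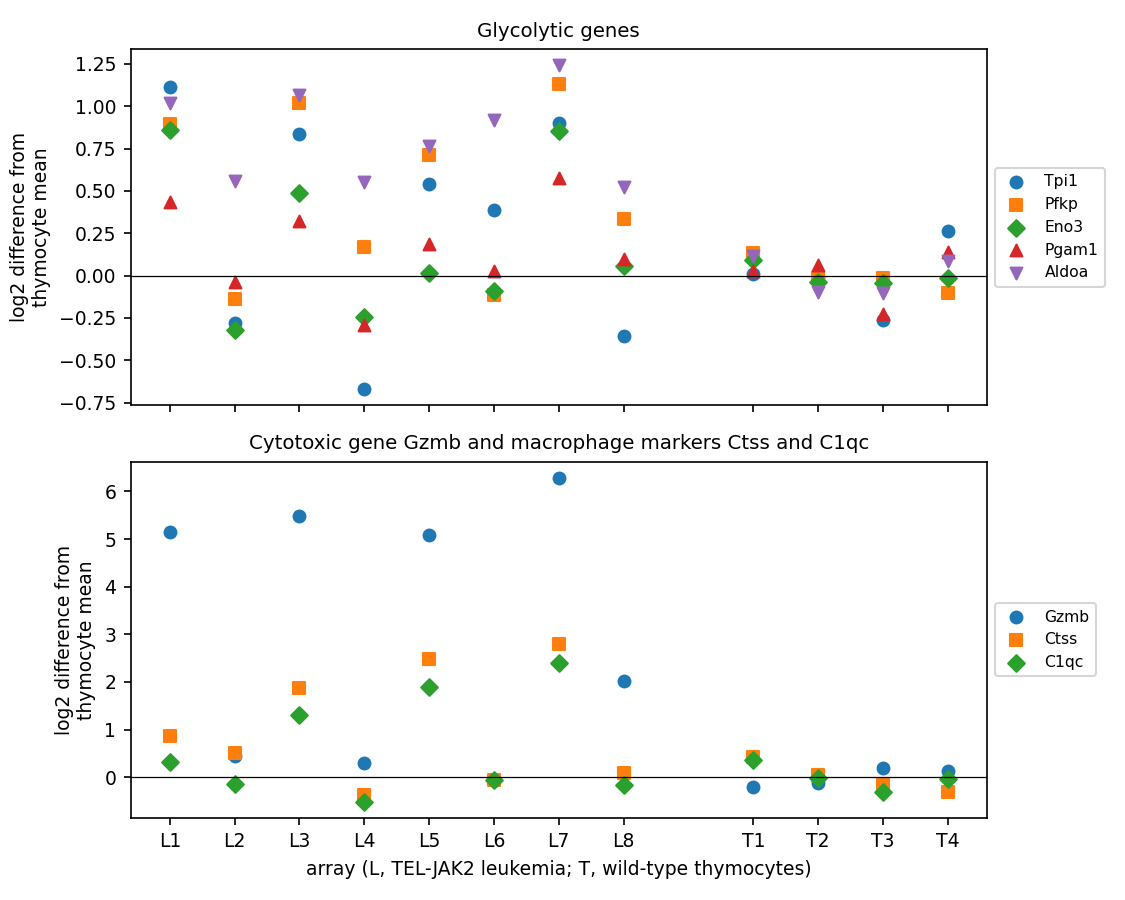
Log2 difference of each array from the thymocyte mean for 5 glycolytic genes (upper panel) and for Gzmb, Ctss and C1qc (lower panel), on 8 leukemia arrays (L1 to L8) and 4 thymocyte arrays (T1 to T4). Leukemias 1, 3, 5 and 7 are the highest in Tpi1, Pfkp, Pgam1 and Gzmb, but in Eno3 leukemia 8 lies above leukemia 5. Aldoa is above the thymocyte arrays in all 8 leukemias.

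Some markers of the T lineage also differed between the groups. The mean of the 12 measured lay at 9.63 to 10.17 in leukemias, against 10.27 to 10.40 in thymocytes, with no overlap. Of the 12 measured, 3 were lower and 1 higher, against 11.9% and 5.41% of all genes. The other 8 did not pass, with log2 changes from -0.49 in Cd8b1 to 0.26 in Cd3d. Cd5, an inhibitory receptor gene, fell by 2.33 on the log2 scale, the coreceptor gene Cd4 by 1.89 and the receptor zeta chain gene Cd247 by 0.93, while the adhesion gene Cd2 rose by 1.38 (limma, all 4 without overlap). Their part in the fall of Ldhb was not tested.

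Markers of dividing cells moved against the enzymes that rose. Of 11 measured, 9 were lower in the leukemias and none was higher, against 11.9% lower over all genes, and 5 were lower without thymocyte array 2 or 4. Their mean was 6.89 to 8.14 in leukemias, against 8.34 to 8.92 in thymocytes. Across the 8 leukemias this mean had r = 0.43 with Ldha (exact permutation p = 0.284, Spearman's rho 0.33, exact p = 0.428, r = 0.20 without leukemias 5 and 6) and r = -0.15 with Ldhb (exact permutation p = 0.716, Spearman's rho -0.07, exact p = 0.882, r = -0.68 without leukemias 5 and 6). None passed after adjustment over 3 relations (adjusted p = 0.716 for Pearson's r and 1 for Spearman's rho). Relations with macrophage markers are not given, since leukemias 3, 5 and 7 form a separate cluster in them.

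The other glycolytic enzymes did not rise as a group. Of 11 measured, none was higher, 1 was lower and 10 did not pass, against 5.41% higher and 11.9% lower over all genes. The median log2 change was 0.01, and at an unadjusted p under 0.05 in limma 1 was higher and 2 were lower. Of the 11, 3 were near the control level in both groups. A change in these 3 is not resolved, and they enter the median. The 1 that fell was Bpgm, which makes the haemoglobin effector 2,3-bisphosphoglycerate, with a log2 change of -0.58 (SE 0.19, limma adjusted p = 0.0497 over genes). Bpgm was at 6.08, 6.72, 6.97, 7.12, 6.47, 6.32, 6.02 and 6.64 in leukemias 1 to 8, against 7.27, 6.94, 7.23 and 7.05 in thymocyte arrays 1 to 4, and it no longer passed without leukemia 1, 2, 5, 6, 7 or 8 or without thymocyte array 1, 2 or 3. Gapdh was read only by control probe sets, which were not tested, and its 3′ probe set averaged 12.17 ± 0.14 in leukemias (SD, n = 8) and 12.11 ± 0.15 in thymocytes (SD, n = 4).

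The glucose and monocarboxylate transporters besides Slc16a1 gave no limma call among 8 measured, where 1 had an unadjusted p under 0.05, and the exact rank-sum test called 0. Limma gave 1 call, higher, after quantile normalization, with array weights, with the form of the title as a block and without leukemia 7, and 2 calls, 1 higher and 1 lower, without leukemias 1 and 7. The brightest were Bsg, the chaperone that carries MCT1 to the membrane (9.33 in both groups, log2 change -0.01, limma adjusted p = 0.978 over genes), and the related Emb (8.66 in leukemias and 8.30 in thymocytes, log2 change 0.36, limma adjusted p = 0.0948 over genes). Both regulators of glycolytic flux that were measured, Pfkfb2 and Pfkfb3, did not pass, at log2 changes of 0.01 and -0.10. Pfkfb2 was near the control level in both groups, so a change in it is not resolved. None of the 7 measured genes of the malate-aspartate and glycerol phosphate shuttles passed in limma, with 0 at an unadjusted p under 0.05 and 0 by the exact rank-sum test, among them the brightest, Mdh2 (-0.15) and Got2 (-0.05).

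Of 12 genes for the fate of pyruvate 2 were lower and none higher, against 11.9% lower over all genes, and 0 were lower without leukemia 5 or 8 or without thymocyte array 1, 3 or 4. Pdhb, a subunit of pyruvate dehydrogenase, fell by 0.40 on the log2 scale (SE 0.12, limma adjusted p = 0.0318 over genes), with means of 8.56 ± 0.24 in leukemias (SD, n = 8) and 8.95 ± 0.09 in thymocytes (SD, n = 4). The malic enzyme gene Me1 fell by 0.28, near the control level in both groups. Of 7 genes of the pentose phosphate branch, Rpia, the ribose-5-phosphate isomerase gene, fell by 0.30 (SE 0.09, limma adjusted p = 0.0284 over genes) and the other 6 did not pass, while none of the 7 passed without thymocyte array 1, 2 or 3.

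Among 12 genes of gluconeogenesis and glycogen, 2 rose and 1 fell, against 5.41% higher and 11.9% lower over all genes, and 1 passed without thymocyte array 3. Pgm1, which links glycogen to glycolysis by moving the phosphate of glucose phosphates, was at 8.28, 8.36, 8.23, 7.93, 8.36, 8.67, 8.21 and 8.49 in leukemias 1 to 8, against 7.33, 7.29, 7.37 and 7.11 in thymocyte arrays 1 to 4. It rose by 1.04 without overlap (SE 0.11, 2.06-fold, limma adjusted p = 3.66e-05 over genes). Fbp1, the fructose bisphosphatase that opposes phosphofructokinase, spread from 5.10 to 8.24 in leukemias, against 4.69 to 5.08 in thymocytes, which were near the control level. It was at least 2.37-fold higher in the leukemias (limma adjusted p = 0.0220 over genes). Gys1, the muscle-type glycogen synthase gene, fell by 0.31 (SE 0.08, limma adjusted p = 0.0170 over genes).

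Of 13 transcriptional regulators of glycolysis, 1 was lower and none higher, against 11.9% lower over all genes. When leukemia 2 or 4 was left out 2 were lower, and with array weights 1 was higher and 2 were lower. The 1 was Egln1, whose enzyme marks hypoxia-inducible factor for degradation, with a log2 change of -0.36 (SE 0.08, limma adjusted p = 0.00927 over genes). Hif1a changed by 0.20 (limma adjusted p = 0.546 over genes) and Myc by 0.29 (limma adjusted p = 0.170 over genes), and neither passed.

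Genes induced by hypoxia outside glycolysis changed in both directions. Of 13 measured, 4 were higher, 2 were lower and 7 did not pass, with a median log2 change of 0.21, against the 17.3% of all genes that changed. Bhlhe40, a transcriptional repressor gene, was at 6.50 to 7.40 in leukemias, against 4.77 to 5.27 in thymocytes, which were near the control level (at least 2.90-fold higher, limma adjusted p = 1.35e-05 over genes). Ddit4, an inhibitor of mTOR signalling, rose 2.43-fold (log2 change 1.28, SE 0.13, limma adjusted p = 2.81e-05 over genes). Mxi1, a Max partner that opposes Myc, fell by 0.70 (SE 0.14, limma adjusted p = 0.00286 over genes), and Ndrg1 rose by 0.96 (SE 0.19, limma adjusted p = 0.00312 over genes). Vegfa, the endothelial growth factor gene, spread from 4.79 to 7.58 in leukemias, against 4.01 to 4.28 in thymocytes near the control level (at least 1.67-fold higher), and P4ha1, a collagen prolyl hydroxylase gene, fell by 0.69.

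**Figure D5:**
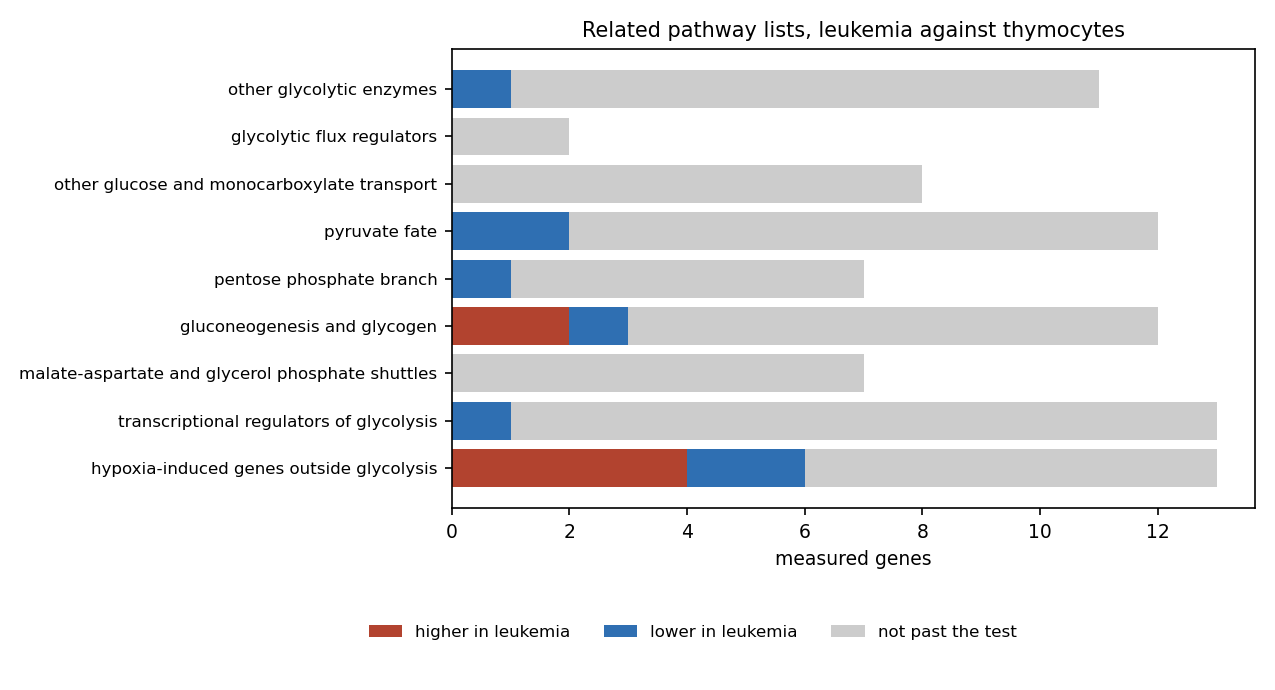
Number of measured genes in 9 lists around glycolysis that were higher in leukemias, lower in leukemias or did not pass the limma test at an adjusted p under 0.05 over 8251 genes, 8 leukemias against 4 thymocyte samples. None of the 11 other glycolytic enzymes was higher, with 3 of them near the control level in both groups. The hypoxia-induced genes held 4 of the 6 increases.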

How the data were processed

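Per the submitters' processing notes the authors used RMA, whose version no label or header records, and the deposited table holds 1 linear intensity per probe set and array. All 12488 values per array were converted to log2 without an offset, 66 control probe sets were set aside, which left 12422 to test. Only the 10833 probe sets that the platform annotation assigns to a single gene were named (396 had several genes and 1193 had none). The probe set brightest on average across the 12 arrays stood for each of the 8251 genes.

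Leukemias were compared with thymocytes in limma 3.58.1 under R 4.3.3 (lmFit and eBayes without covariates, two-sided), with Benjamini-Hochberg adjustment over all probe sets, or over all genes where stated, at an adjusted p under 0.05. The model was tested on simulated data. Differences between subunits used an exact permutation test over arrays (Python 3.11.15). Where 1 group was near the control level, a fold is a lower bound, with each array of the dimmer group raised to its control percentile where it lay below it. The number of arrays limits the precision.

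The genes and lists were chosen with earlier results of these data known. The rule for named genes takes all probe sets of the 10 genes. It takes the genes past the test of each list, up to 4, or else the 2 brightest, and the 3 most like Ldhb and Ldha. Hif1a, Myc, Pfkl, Pfkm, Pfkp, Eno3, Pgam1, Prf1, Ctss, C1qc, Cd2, Cd3d, Cd4, Cd5, Cd8b1, Cd247, Col1a1, Col1a2, Col3a1, Vegfa and P4ha1 were named outside this rule, after their values were seen. Alternatives covered normalization, dim probe sets, variance models, single arrays, title numbers, macrophage markers, tests and thresholds. Leaving out leukemias 3, 5 and 7, or 1 and 7, was chosen after seeing the data. Promoters were read from a RefSeq table. The build used for the array annotation is not known here, and coordinates are those of the RefSeq table.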

Additional observations from a re-analysis of the deposited data

Results flagged for a closer look

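Each group of 4 to 10 arrays was searched for an array far from the others, in 30 groups of values, and 2 stood out, where chance picks about 1 in 20. In Pkm 96066_s_at thymocyte array 3 was at 10.87 on the log2 scale, below the next array at 10.98. In Ldhb minus Ldha thymocyte array 3 was at -2.28, above the next array at -2.47. The same array had the lowest Ldha, at 10.71, and without it Ldha and Pkm did not pass the limma test (adjusted p = 0.136 and 0.0659), while Ldhb passed.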

How the results depend on the processing

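Over 12422 probe sets the number called was 1805 in the model reported and 1162 to 2044 with 1 array left out, lowest without thymocyte array 1 (1162) or 2 (1185). It was 13 with only the arrays without a 4-digit title number, 1008 at an adjusted p under 0.01 and 128 with limma's treat against a 1.5-fold change. Of the 13 probe sets examined 0 were called in the arrays without a 4-digit number, and 1, Ldhb 101990_at, with treat, and the same counts of 0 and 1 held for the genes. With 1 array left out 5 to 8 of the probe sets and 4 to 6 of the 9 genes were called. Ldhb 101990_at passed in 25 of 26 alternatives, all but the arrays without a 4-digit number (adjusted p = 0.109), Hk1 and both Aldoa probe sets in 24 of 26, Pkm 96066_s_at in 18 and Ldha in 11. The Ldhb minus Ldha difference ran from -2.67 to -2.42 with 1 array left out and was -1.43 with all probe sets of a gene averaged. It was -2.55 (exact permutation p = 0.0571) and -2.48 (exact p = 0.4) within the arrays with and without a 4-digit number, and Hk2 minus Hk1 was -0.52 and -0.31 with the same p-values, the smallest those designs allow. Without the 2 leukemias farthest from the median, r was 0.13 for Ldhb with Ldha, 0.20 for dividing-cell markers with Ldha and -0.68 with Ldhb.

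Changes of sign were all in probe sets that did not pass. With 1 array left out Ldhb 161945_at ran from -0.035 to 0.017 and Hk2 94375_at from -0.042 to 0.030. Ldhb 161945_at was at 0.0038 with arrays centred, 0.017, 0.016 and 0.0010 without leukemia 3, 6 or 7, 0.016 and 0.0071 without thymocyte array 1 or 3, 0.057 in arrays without a 4-digit number and 0.0073 without leukemias 3, 5 and 7. Hk2 94375_at was at 0.030, 0.026 and 0.016 without leukemia 4, leukemia 6 or thymocyte array 1, 0.0013 with the title number as a block, 0.0085 in arrays without a 4-digit number, and 0.032 with both probe sets averaged. Tpi1 was at -0.043 with the macrophage covariate. The cause was not tested. Restricting the test to probe sets brighter than the median left no value for the 4 dim probe sets. No paired analysis was possible because the labels give no replicate numbers that the groups share.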
